A study of Mus musculus with 6 samples.

Results

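The dynein arms, the factors that assemble and dock them, and the radial spokes drive and regulate the beat of the sperm tail, and 40 genes for them were followed in mouse testis. A gene entered the set if it was protein-coding and its symbol began with Dnah, Dnaic, Dnai or Dnal followed by a number, with Dnaaf, or with Rsph followed by a number, or if it was Dnali1, Ccdc114, Ccdc151, Armc4, Ttc25, Lrrc6, Zmynd10, Ccdc103 or Pih1d3. The rule used names and no measured value. It took 40 of the 54532 genes in the deposited count table, of which 22046 are protein-coding. The set divides into 5 outer arm heavy chains, 10 inner arm heavy chains, 5 intermediate and light chains, 4 outer arm docking genes, 8 cytoplasmic assembly factors and 8 radial spoke genes.

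Whole testis was profiled by RNA sequencing in 3 wild-type (WT) mouse libraries and 3 libraries from knockout (KO) testes lacking the long non-coding RNA gene 1700052I22Rik, a transcript studied for its part in spermatogenesis. The animals' age and strain, the part of the gene removed, and whether the deletion acts in all cells are not stated in the sources used here. No treatment is named for either genotype. Whether the replicates are separate animals is not stated, and p-values therefore measure only how far these samples spread, which may be technical.

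The libraries held 17635045 to 18117593 counts, of which the 40 genes took 0.642% to 0.688%. The knocked-out transcript had 185, 175 and 218 reads in the WT libraries and 0, 0 and 0 in the KO libraries. Markers of round, elongating and meiotic germ cells were abundant in every library, as the tissue label states. Levels are given as TMM-normalised CPM, read counts scaled to a common library size, and, for comparisons between genes, as CPM per kilobase of the deposited gene length. Differences between genotypes are log2 fold changes, KO minus WT, from the quasi-likelihood test of edgeR, adjusted by Benjamini and Hochberg's method over all 19320 genes that passed the low-count filter.

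Motile cilia and sperm tails share an axoneme in which dynein heavy chains, large ATP-driven motors, slide neighbouring microtubule doublets past each other. Outer arms set much of the beat's force and frequency, inner arms shape the bend, and radial spokes pass signals from the central pair to the arms. Arms are folded and put together in the cytoplasm with dedicated chaperones before transport, and outer arms then bind a docking complex on the doublet. In testis these genes are read mainly in meiotic and later germ cells, where some heavy chains and spoke proteins of airway cilia are replaced by sperm paralogs. In bulk tissue, fewer cells of a type and less RNA per cell cannot be told apart.

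Dynein arm and spoke transcripts stood near their WT levels in KO testes. Of the 40 genes 39 were tested, and 0 passed the adjusted threshold of 0.05. Over all tested genes 0.00518% passed, a single gene, the knocked-out transcript. None of the 39 had an unadjusted p under 0.05 in edgeR's test, against 4.63% of all tested genes, and DESeq2 and limma-voom also called 0 of them. Their adjusted p lay between 0.966 and 0.992. The median log2 fold change of the 39 genes was 0.02, with 23 above 0 and 16 below, and that of all tested genes was -0.0025. The 95% interval of the fold change lay within 1.5-fold in either direction for 37 of the 39 genes (94.9%), against 61.6% of all tested genes. The share was 70.7% of tested protein-coding genes and 81.4% of tested genes longer than 10 kb outside the set. For most of the set, shifts beyond 1.5-fold are therefore outside the interval. The values of the 3 WT and the 3 KO libraries did not overlap for 4 of the 39, Pih1d3, Dnah12 and Rsph10b with KO above WT and Dnaaf5 with KO below. That is 10.3% of the tested set, against 9.32% of all tested genes (4.69% with KO above and 4.63% with KO below), so this share was close to the background.

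**Figure D1:**
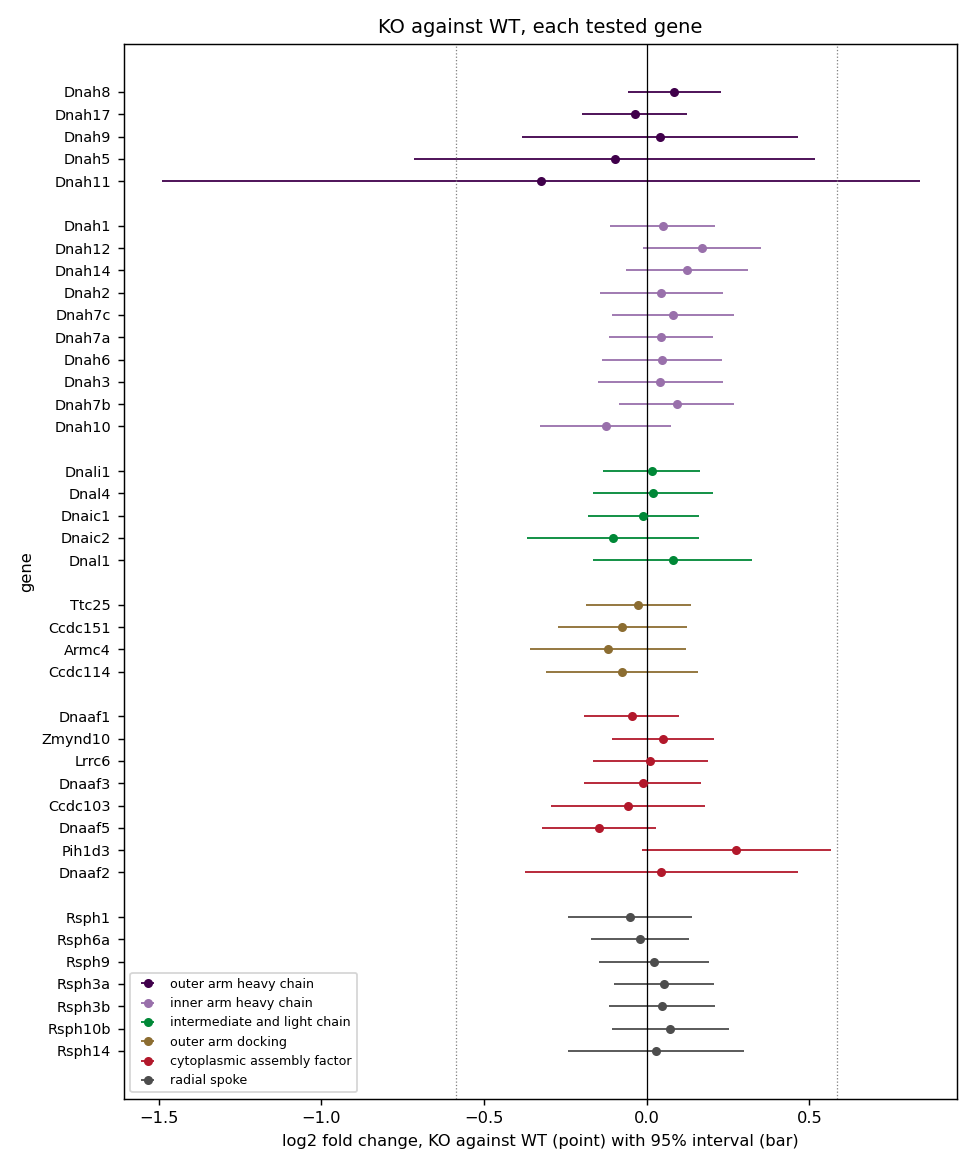
Log2 fold change, KO minus WT, of the 39 tested genes on the horizontal axis, grouped by role, with 95% intervals from edgeR as bars and dotted lines at 1.5-fold in either direction. All intervals include 0, and only the scarce Dnah5 and Dnah11 reach past 1.5-fold.

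Levels within the set spanned several orders of magnitude. Rsph1, a spoke-head gene, led with a mean over the 6 libraries of 697 CPM per kilobase, followed by the assembly factor gene Dnaaf1 with 370 and its fellow assembly gene Zmynd10 with 133. The spoke-head gene Rsph6a had 106, the inner arm light intermediate chain gene Dnali1 97.2, and the outer arm heavy chain gene Dnah8 66.1 CPM per kilobase. At the other end stood Dnah9 with 0.342, Rsph4a with 0.127, Dnah5 with 0.124 and Dnah11 with 0.0527 CPM per kilobase. These last 4 encode chains or spoke heads best known from motile cilia of the airways. Heavy chain transcripts are long, so the order by CPM differs, with Dnaaf1 in place 1 and Dnah8 in place 2 in place of 2 and 6. Per kilobase, Dnah8 depends on its deposited length, and with the merged exons of GENCODE M21 its level would be 36.0 CPM per kilobase and its place 11.

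**Figure D2:**
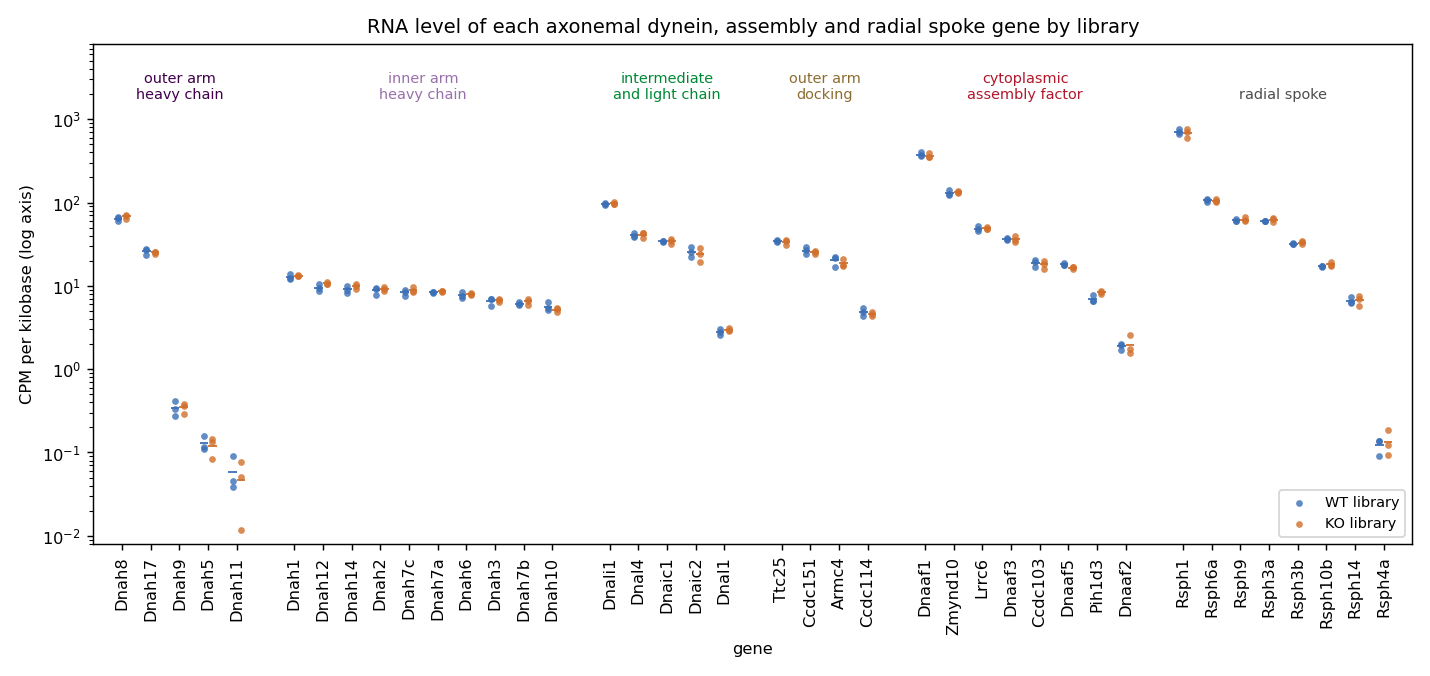
Level of each of the 40 genes in CPM per kilobase of deposited length on a log axis, grouped by role, with WT libraries and KO libraries as separate points and a bar at each group's mean. Rsph1 and Dnaaf1 lie highest, and Dnah9, Dnah5, Dnah11 and Rsph4a lie below 1 CPM per kilobase in all 6 libraries.

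Among outer arm heavy chains the sperm forms made up nearly all transcripts. Dnah8, the sperm counterpart of Dnah5, lies on the plus strand of chromosome 17 (mm10, 30624354 to 30875264), and Dnah17, related to Dnah9 and Dnah11, on the minus strand of chromosome 11 (118021723 to 118130634). Together they held 99.3% to 99.5% of the outer arm heavy chain counts of each library. Within WT libraries the level of Dnah8 per kilobase was 500 times that of Dnah5 (409 to 616 over the 3 libraries), and 272 times (223 to 335) with the merged exons of GENCODE M21 as the length of both. Dnah17 stood 440 times above Dnah11 (293 to 602) and 76.5 times above Dnah9 (56.3 to 99.4). In WT the 5 chains ranked Dnah8, Dnah17, Dnah9, Dnah5 and Dnah11, and no neighbouring pair in this order overlapped over the 3 libraries.

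Dnah8 had 987, 876 and 944 CPM across WT 1 to WT 3 against 999, 936 and 1043 across KO 1 to KO 3, or 936 ± 55.9 and 993 ± 53.8 (SD, n = 3). The KO values reached higher but overlapped with WT, with a log2 fold change of 0.09 (95% interval -0.06 to 0.23, edgeR adjusted p = 0.968). Dnah17 had 434, 373 and 443 CPM in the WT libraries against 414, 390 and 414 in the KO libraries, with the KO values inside the WT range. Its log2 fold change was -0.04 (95% interval -0.20 to 0.12, edgeR adjusted p = 0.977). Both chains were lowest in WT 2.

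The scarce outer chains were measured less precisely. Dnah9 had 4.32, 6.56 and 5.28 CPM in the WT libraries against 6.12, 5.83 and 4.65 in the KO libraries (log2 fold change 0.04, 95% interval -0.38 to 0.46). Dnah5, mutated in many patients with primary ciliary dyskinesia, had 1.72, 1.84 and 2.47 CPM in the WT libraries against 1.29, 2.10 and 2.24 in the KO libraries (log2 fold change -0.10, 95% interval -0.72 to 0.52). Dnah11, which shapes the ciliary beat, had 24, 10 and 12 reads in the WT libraries against 3, 13 and 20 in the KO libraries (log2 fold change -0.33, 95% interval -1.49 to 0.84). All 3 overlapped between genotypes. Part of the Dnah11 reads is uncertain, since 642 of its exonic bases also belong to Cdca7l, whose own level was 15.3 CPM against 0.762 for Dnah11.

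The share of the 2 main outer chains was also read within each library, where scaling between libraries cancels. The Dnah8 to Dnah17 ratio per kilobase was 2.51, 2.59 and 2.36 in WT and 2.67, 2.65 and 2.79 in KO. The KO ratios all stood above the WT ratios, 2.70 ± 0.0731 against 2.49 ± 0.119 (SD, n = 3), 8.52% higher. With the GENCODE M21 lengths the ratio itself would be 1.47 ± 0.0397 against 1.35 ± 0.0649, the same change in percent, since the lengths cancel between genotypes. A two-sided exact permutation test gave p = 0.1, the smallest that 3 against 3 allows, and 0.9 after adjustment over the 9 ratios computed. These 9 ratios were chosen after the values were seen. The other 8, among them Zmynd10 to Lrrc6, Rsph6a to Rsph9 and outer to inner arm heavy chains, overlapped between genotypes. Their raw exact p ran from 0.3 to 0.9.

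**Figure D3:**
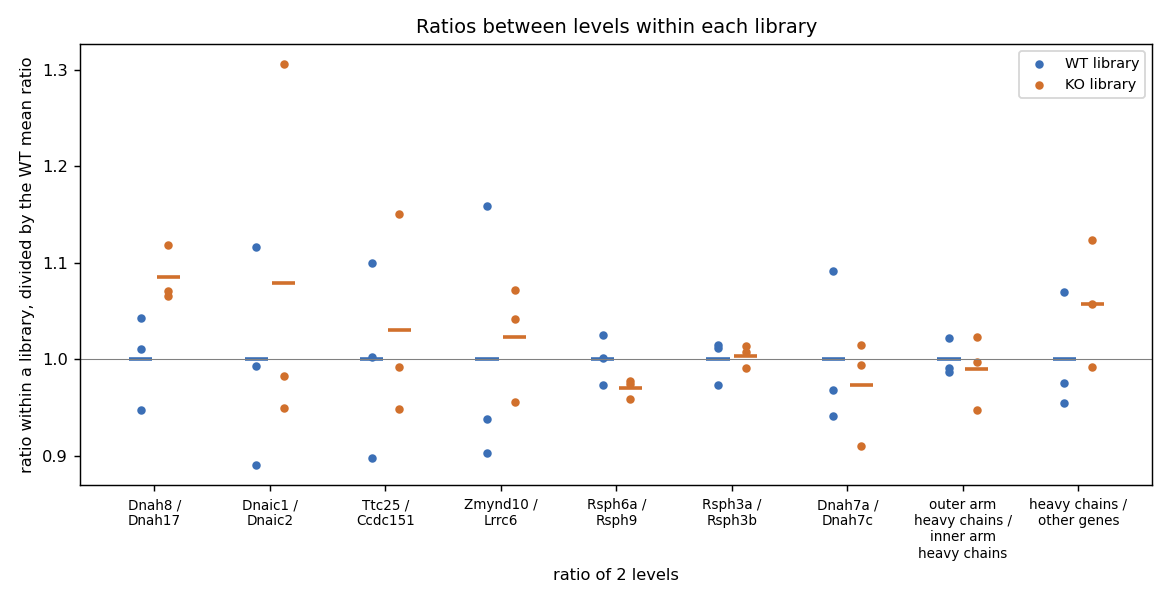
Ratios between genes or groups of genes within each library, divided by the mean WT ratio of the pair, for the 9 pairs computed, with WT and KO libraries as points and group means as bars. Only the Dnah8 to Dnah17 ratio has all 3 KO libraries above all 3 WT libraries, and its exact p is 0.1.

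The inner arm heavy chains were present at more even levels, from 5.40 CPM per kilobase for Dnah10 to 13.0 for Dnah1. Dnah1, Dnah3, Dnah6, the Dnah7 copies and Dnah12 encode single-headed inner arm motors, and Dnah2 and Dnah10 the chains of the inner arm with paired heads. In WT Dnah1 stood above Dnah12 without overlap. From Dnah12 through Dnah14, Dnah2, Dnah7c, Dnah7a and Dnah6, each neighbour overlapped with the next over the 3 libraries, as did Dnah3, Dnah7b and Dnah10. Only the step from Dnah6 to Dnah3 separated those runs. The place of Dnah7b depends on its deposited length, 19980 bases against 12767 for Dnah7a and 12603 for Dnah7c. In CPM its mean over the 6 libraries, 126, was above the 108 of each of those copies.

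Dnah1, whose loss leaves malformed sperm tails, had 164, 157 and 180 CPM in the WT libraries against 170, 174 and 174 in the KO libraries (log2 fold change 0.05). Dnah12 had 125, 104 and 114 CPM in the WT libraries against 125, 125 and 135 in the KO libraries, or 114 ± 10.3 and 129 ± 5.94 (SD, n = 3). The KO values of Dnah12 lay above WT, though KO 2 and WT 1 differed by little. Its log2 fold change was 0.17 (95% interval -0.01 to 0.35, edgeR adjusted p = 0.966). Dnah14 had 162, 134 and 144 CPM in the WT libraries against 148, 161 and 171 in the KO libraries (log2 fold change 0.12, 95% interval -0.06 to 0.31). Dnah10 was the only inner chain below 0, with 102, 81.7 and 87.8 CPM in the WT libraries against 86.2, 84.8 and 78.2 in the KO libraries (log2 fold change -0.13, 95% interval -0.33 to 0.08). Both overlapped between genotypes. For Dnah2, Dnah3 and Dnah6 the log2 fold changes were 0.05, 0.04 and 0.05.

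Of the 10 inner chains 9 had a log2 fold change above 0, with a median of 0.05, and 0 passed the test. Other genes with a deposited length over 10 kb, which share the length of heavy chains, had a median of 0.02 with 792 of 1379 above 0. WT 2 was the lowest of the 6 libraries for 9 of the 13 heavy chains with a mean above 5 CPM. Their median log2 deviation from the 6-library mean was -0.14 in WT 2, 0.04 in WT 1 and -0.03 in WT 3, and 0.0048, 0.04 and 0.05 in KO 1 to KO 3. Other long genes deviated by -0.04 in WT 2, and the 24 other genes of the set by -0.0082. Without WT 2, 7 of the 10 inner chains were above 0. Leydig cell markers varied too, with a summed level of 264 CPM in WT 1 and 927 in WT 2, and 296 to 687 in KO. The part of library differences such as these in the heavy chain values was not tested.

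**Figure D4:**
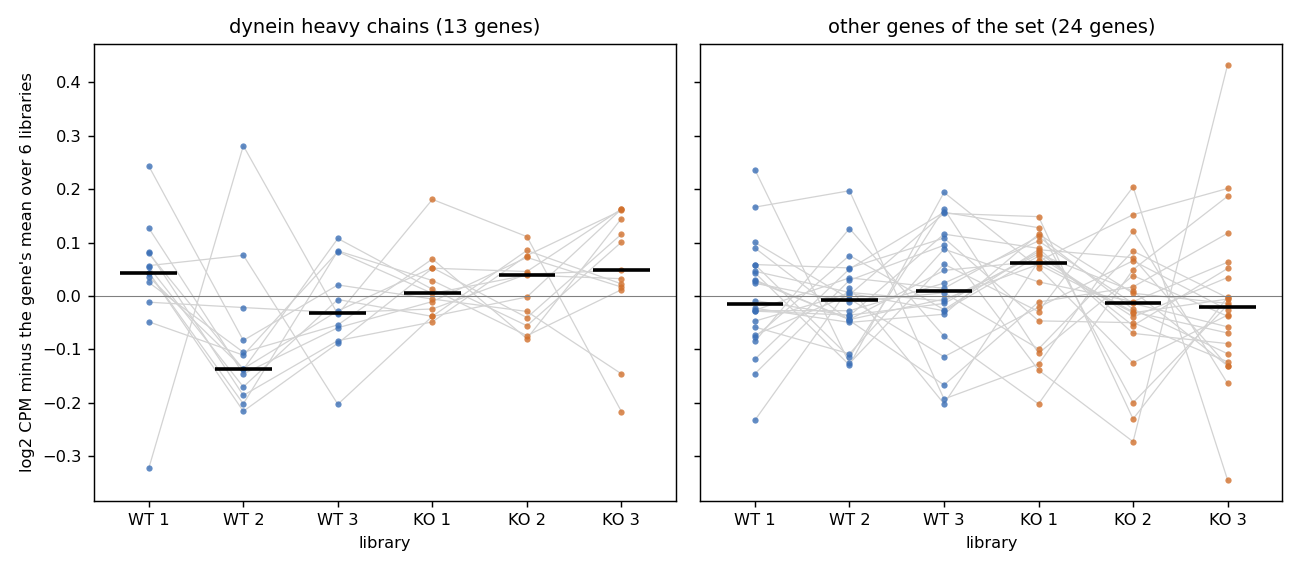
Log2 deviation of each gene from its mean over the 6 libraries, by library, for the 13 heavy chains above 5 CPM and the 24 other genes drawn, with thick black bars at the medians and grey lines joining the points of a gene. The heavy chains sit lowest in WT 2, with a median of -0.14, and the medians of the other genes stay between -0.02 and 0.06.

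Dnah7a, Dnah7b and Dnah7c are near-identical copies on chromosome 1, so their counts are uncertain. Over aligned coding transcripts of GENCODE M21 they were 96.9% to 97.3% identical, and 12.3% to 17.1% of 100-base windows were found in the other copy without a difference. The stretches below show why short reads can be hard to place. Over 80 bases, 5′ to 3′, the copies differ at 3 positions, given in capitals. The window was picked to hold at least 3 such positions. It spans transcript positions 3017 to 3096 in Dnah7a, 3080 to 3159 in Dnah7b and 2969 to 3048 in Dnah7c.
Dnah7a: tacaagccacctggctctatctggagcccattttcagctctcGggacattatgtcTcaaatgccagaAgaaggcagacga
Dnah7b: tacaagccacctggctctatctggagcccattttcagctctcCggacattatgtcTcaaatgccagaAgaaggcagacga
Dnah7c: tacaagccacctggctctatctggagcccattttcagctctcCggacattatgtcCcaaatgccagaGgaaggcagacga
How multiply mapped reads were counted is not stated. As deposited, Dnah7a had 106 ± 0.718 CPM in WT against 110 ± 3.01 in KO, Dnah7b 122 ± 5.61 and 130 ± 10.2, and Dnah7c 105 ± 8.33 and 111 ± 8.41 (SD, n = 3). All 3 overlapped between genotypes, with log2 fold changes of 0.04, 0.09 and 0.08.

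Intermediate and light chains carry the motors' cargo-binding and regulatory functions. Dnali1, the light intermediate chain of inner arms, had 211, 201 and 206 CPM in the WT libraries against 216, 203 and 206 in the KO libraries, the highest level per kilobase of this group. Dnal4, a light chain, had 92.4, 103 and 95.8 CPM in the WT libraries against 104, 102 and 89.0 in the KO libraries. Dnal1, which binds an outer arm motor domain, was lowest with 21.3, 19.4 and 17.8 CPM in the WT libraries against 19.8, 20.2 and 21.7 in the KO libraries. The genotypes overlapped for each, with log2 fold changes of 0.01, 0.02 and 0.08. Reads of Dnal1 are partly uncertain, since 384 exonic bases are shared with Pnma1. The outer arm intermediate chain genes Dnaic1 and Dnaic2 had log2 fold changes of -0.01 and -0.10, and Dnaic2 varied most within KO, with 110, 129 and 88.2 CPM.

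All 4 docking genes had log2 fold changes below 0, and 0 passed the test. Ttc25, the most abundant per kilobase, had 216, 210 and 208 CPM in the WT libraries against 221, 210 and 191 in the KO libraries (log2 fold change -0.03). Ccdc151 had 67.6, 60.0 and 72.7 CPM in the WT libraries against 60.3, 66.7 and 63.2 in the KO libraries (log2 fold change -0.07). Ccdc114, the partner of Ccdc151 in the docking complex, had 29.4, 26.1 and 32.6 CPM in the WT libraries against 29.6, 26.2 and 27.8 in the KO libraries (log2 fold change -0.08). Armc4, needed to target outer arms to the doublet, had 70.2 ± 10.1 CPM in WT against 64.7 ± 7.15 in KO (SD, n = 3; log2 fold change -0.12). In every case the genotypes overlapped, and without WT 3 or without KO 3 the fold change of 1 of the 4 was above 0. Of all 19320 tested genes 9790 were below 0. Among docking and ruler genes outside the name rule, followed below, all 4 were above 0.

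Among assembly factors Dnaaf1, a leucine-rich repeat protein gene on chromosome 8 (119575235 to 119598454, plus strand), was the most abundant. It had 1037, 1017 and 1130 CPM in the WT libraries against 1110, 994 and 981 in the KO libraries (log2 fold change -0.05, 95% interval -0.19 to 0.10). Zmynd10, whose product acts with that of Lrrc6, had 272, 262 and 300 CPM in the WT libraries against 288, 281 and 295 in the KO libraries (log2 fold change 0.05). Dnaaf2, a PIH-domain co-chaperone gene, was lowest with 5.82, 6.56 and 6.87 CPM in the WT libraries against 5.84, 5.32 and 8.68 in the KO libraries (log2 fold change 0.04). All 3 overlapped between genotypes. Per kilobase, the level of Dnaaf1 in WT was 199 times that of Dnaaf2. Reads of both are partly uncertain. Dnaaf2 shares 1107 exonic bases (32.7%) with 9330151L19Rik, 757 with Gm49383 and 700 with Gm49384, and Dnaaf1 shares 584 (20.7%) with Taf1c. The level of 9330151L19Rik was 3.65 CPM against 6.52 for Dnaaf2, and Gm49383 and Gm49384 had 0. Taf1c had only 12.5 CPM against 1045 for Dnaaf1.

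The smallest p of the 39 genes belonged to Pih1d3, another PIH-domain gene (chromosome 1, 31222838 to 31224288, plus strand), whose loss removes dynein arms from mouse sperm. It had 9.42, 11.2 and 9.62 CPM in the WT libraries against 11.6, 12.3 and 12.7 in the KO libraries, or 10.1 ± 0.967 and 12.2 ± 0.578 (SD, n = 3). Every KO library stood above every WT library, with a log2 fold change of 0.28 (95% interval -0.02 to 0.57, edgeR adjusted p = 0.966). Dnaaf5, a HEAT-repeat protein gene (chromosome 5, 139150223 to 139186510, plus strand), went the other way, with 63.0, 62.7 and 65.2 CPM in the WT libraries against 58.5, 58.4 and 55.5 in the KO libraries. Every KO library of Dnaaf5 stood below every WT library, with a log2 fold change of -0.15 (95% interval -0.32 to 0.03, edgeR adjusted p = 0.966). Neither passed the test. The other 3 assembly genes, Lrrc6, Dnaaf3 and Ccdc103, had log2 fold changes of 0.01, -0.01 and -0.06, and the 8 assembly genes were split 4 above and 4 below 0.

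Radial spoke genes held the most abundant transcript of the set per kilobase. Rsph1 (chromosome 17, 31255019 to 31277356, minus strand) had 769, 810 and 900 CPM in the WT libraries against 896, 689 and 807 in the KO libraries. The genotypes overlapped, with 826 ± 67.2 and 798 ± 104 CPM (SD, n = 3) and a log2 fold change of -0.05. Its lowest library, KO 2, also had the lowest summed level of elongating spermatid markers, 16635 CPM. Its highest pair, WT 3 and KO 1, had the highest such sums, 19165 and 19689 CPM. The markers in these sums did not move together. In KO 2, Tnp1, Tnp2, Prm1 and Prm2 were at their lowest, but Odf1, Akap4, Smcp and Oaz3 were at their highest. Smcp and Oaz3 were lowest in WT 3. The part of these marker levels in the Rsph1 values was not tested.

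Rsph6a, the sperm counterpart of the ciliary spoke-head gene Rsph4a, had 269, 255 and 272 CPM in the WT libraries against 276, 258 and 251 in the KO libraries (log2 fold change -0.02). Rsph4a had 6, 9 and 9 reads in the WT libraries against 12, 8 and 6 in the KO libraries, was under the low-count filter and was not tested. Per kilobase Rsph6a stood 877 times above Rsph4a in WT (746 to 1180 over the 3 libraries). Rsph14 was the lowest tested spoke gene, with 18.9, 21.9 and 19.02 CPM in the WT libraries against 17.4, 20.7 and 22.8 in the KO libraries (log2 fold change 0.03). Rsph10b had 53.9, 52.9 and 53.5 CPM in the WT libraries against 59.3, 54.9 and 54.2 in the KO libraries. The genotypes did not overlap for Rsph10b, but the gap was under 1 CPM and the log2 fold change was 0.07. In WT the 8 spoke genes ranked Rsph1, Rsph6a, Rsph9, Rsph3a, Rsph3b, Rsph10b, Rsph14 and Rsph4a per kilobase, and no neighbouring pair overlapped. The gap from Rsph9 to Rsph3a was thin, with a lowest value of 60.7 against a highest of 60.2 CPM per kilobase. In KO 1 and KO 2 Rsph9 stood above Rsph3a as well, but in KO 3 it stood below, with 59.4 against 63.0.

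Rsph3a and Rsph3b, genes for a spoke-stalk protein on chromosome 17, are copies too. Over aligned coding transcripts they were 99.2% identical, and 60.6% of 100-base windows were found in both. The stretches below, 5′ to 3′, show 80 bases with the 3 differing positions in capitals. They span transcript positions 517 to 596 in Rsph3a and 532 to 611 in Rsph3b. The window was picked to hold at least 3 differing positions, so it does not show the usual spacing of differences.
Rsph3a: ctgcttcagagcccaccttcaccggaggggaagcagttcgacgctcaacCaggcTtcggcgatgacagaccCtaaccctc
Rsph3b: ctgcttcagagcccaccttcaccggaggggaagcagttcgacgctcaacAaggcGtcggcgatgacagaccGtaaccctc
As deposited, Rsph3a had 180 ± 1.38 CPM in WT against 187 ± 9.26 in KO, and Rsph3b 99.8 ± 1.83 and 103 ± 4.11 (SD, n = 3). Both overlapped between genotypes, and their split in the counts is uncertain. The sperm and ciliary pairs are further apart: Dnah5 and Dnah8 were 61.9% identical and Rsph4a and Rsph6a 59.4%, with 0 shared 50-base windows.

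Promoters of the set were searched for motifs of factors that switch on ciliary and spermatid genes. RefSeq (GRCm38.p6) gave a promoter, 250 bases before to 50 after the start, for 31 of the 40 genes, and both strands were searched. The palindromic X-box of RFX factors, GTTNCC and GGNAAC parted by 2 bases, was in 1 of 31 (3.23%), Ccdc151. Of all 27025 genes with a promoter, 0.529% held it. A single arm of it, GTTGCCA, which the palindrome does not require, was in 4 (12.9%), Dnaaf2, Dnah10, Dnah7b and Zmynd10, against 5.02% of all. The CREM-type site TGACGTCA was in Dnah6 (3.23% against 2.03% of all) and the MYB site AACNGTT in Dnaaf2, Dnaaf3 and Dnah12 (9.68% against 5.01%). The windows below hold 3 of these motifs in capitals. They are the X-box of Ccdc151, 34 to 21 bases before its start (chr9:22002635-22002688, minus strand), and the CREM-type site of Dnah6 (chr6:73221779-73221826, minus strand). The last is the single arm upstream of the RefSeq start of Dnah7b (chr1:46066670-46066716, plus strand). That window lies inside the deposited Dnah7b gene, which begins at 46066315, so it is upstream of a later start only.
Ccdc151: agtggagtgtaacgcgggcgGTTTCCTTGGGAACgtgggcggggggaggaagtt
Dnah6: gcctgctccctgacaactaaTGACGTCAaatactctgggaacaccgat
Dnah7b: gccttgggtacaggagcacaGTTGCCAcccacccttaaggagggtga
A match describes letters in this window and not a bound site. The genes with a match had log2 fold changes between the genotypes from -0.13 (Dnah10) to 0.17 (Dnah12), and none passed the test.

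Genes of the same machinery outside the name rule were followed as 6 lists. They hold 71 symbols, of which 66 were in the table and 61 were tested, and 0 passed the adjusted threshold. The median log2 fold change was 0.01, with 33 above 0 and 28 below. An unadjusted p under 0.05 was found for 2 of the 61 (3.28%), against 4.63% of all tested genes. These were Foxj1, a transcription factor of motile ciliogenesis, and Ruvbl1, an ATPase that acts in dynein arm assembly. Foxj1 had 74.3, 89.3 and 71.0 CPM in the WT libraries against 66.2, 73.5 and 52.9 in the KO libraries, which overlapped (log2 fold change -0.28, edgeR adjusted p = 0.966). Ruvbl1 had 43.0, 50.7 and 46.3 CPM in the WT libraries against 43.9, 35.5 and 39.1 in the KO libraries, which overlapped in KO 1 (log2 fold change -0.24, edgeR adjusted p = 0.966).

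By list, the median log2 fold change was -0.0067 for 13 tested light, intermediate and other dynein chains, where Dynlt1b had the smallest p (-0.16). It was 0.05 for 4 docking and ruler genes, with Ccdc39, a molecular ruler of the axonemal repeat, at 0.10. It was -0.02 for 13 other assembly genes and 0.04 for 12 other spoke genes, with Ropn1, a spoke-related sperm protein gene, at 0.16. The 10 transcription factors of ciliary genes had a median of 0.03, and the spermatid and ciliary factor Rfx2 stood at -0.04. For 9 cytoplasmic and intraflagellar dynein genes it was 0.0027, with Dync2li1, a chain of the motor that carries cargo back from the ciliary tip, at -0.20. None of these genes passed the test.

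Markers of other cell types were read beside the set. Of 12 markers of multiciliated epithelium in the table, Mcidas, Tmem212 and Cdhr3 had 0 to 5 reads per library. Ccdc153 had 3 to 9 reads per library, Trp73 4 to 14 and Sec14l3 10 to 22, and Ccno had a mean of 4.10 CPM. Others were plainly detected, with means over the 6 libraries of 298 CPM for Tekt4, 280 for Deup1, 43.2 for Fam183b, 27.0 for Cdhr4 and 8.04 for Tppp3, and the cells these reads came from were not tested. The list summed to 617 to 707 CPM in WT and 623 to 694 in KO. Among 8 epididymal markers Lcn5 and Lcn8 had 0 reads in all 6 libraries, and the list summed to 74.6 to 90.6 CPM in WT and 87.6 to 92.5 in KO, most of it from Aqp9.

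Summed levels of germ cell markers were 6943 ± 117.4 CPM in WT and 7217 ± 305.9 in KO for round spermatids, 18181 ± 1058 and 18220 ± 1531 for elongating spermatids, 1246 ± 74.1 and 1275 ± 38.7 for pachytene spermatocytes, and 157 ± 7.74 and 146 ± 7.04 for spermatogonia (SD, n = 3). Somatic markers had lower means in KO. They were 1554 ± 104.7 and 1425 ± 31.4 CPM for Sertoli cells, 640 ± 340.3 and 491 ± 195.3 for Leydig cells, and 111 ± 15.7 and 88.1 ± 6.45 for macrophages, with overlap between the genotypes in each. All 8 Leydig and all 8 macrophage markers had a log2 fold change below 0, as did 6 of 8 Sertoli markers, and 0 of these 24 passed the test. Insl3, a Leydig cell hormone gene, did not overlap, with 81.6 ± 2.60 CPM in WT against 42.6 ± 21.8 in KO (SD, n = 3; edgeR adjusted p = 0.966). The macrophage marker Mrc1 did not overlap either, with 33.9 ± 1.03 against 30.8 ± 0.772. KO stood below WT in this way for 4.63% of all tested genes. An unadjusted edgeR p under 0.05 was found for 4 of 8 macrophage, 1 of 8 Leydig and 0 of 8 Sertoli markers, against 4.63% of all tested genes. For germ cells it was found for 2 of 8 spermatogonium, 1 of 10 round spermatid, 0 of 8 elongating spermatid and 0 of 8 pachytene markers. Of the spermatogonium markers 6 of 8 were below 0, and Kit and Etv5 had every KO library below every WT library. Above 0 were 9 of 10 round spermatid, 5 of 8 elongating spermatid and 5 of 8 pachytene markers. Genotype means of the summed level of all 40 genes were 6635 ± 249.5 and 6670 ± 220.0 CPM (SD, n = 3). The part of these marker levels in the values of the set was not tested.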

How the data were processed

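RNA sequencing of whole testis gave 6 libraries, 3 WT and 3 KO. The deposited table holds whole-number counts of reads for each gene, as the authors made them, with symbol, coordinates and length, per the file header. HISAT2 2.0.0 and mm10 were used, per the submitters' processing notes. Counting tool, annotation release and strandedness are not stated in the sources used here, so reads of the 23 genes that share exonic bases with another gene are uncertain. Column names give genotype and number, which tied each column to its sample and left 0 unmatched.

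Genes were kept with filterByExpr (minimum count 10, minimum total 15), leaving 19320, scaled by TMM (factors 0.992 to 1.01) and tested with glmQLFit and glmQLFTest of edgeR 4.0.16 in R 4.3.3, KO against WT, without covariates. The adjusted p threshold was 0.05, intervals are 95%, and errors are SDs over 3 libraries. Single ratios used exact permutation tests. Every pair of libraries differed by more than sampling noise.

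The genes, lists and tests were chosen with earlier results of these data known. Named in full were, per role, the 2 highest and the lowest tested gene per kilobase, the 5 with the smallest p, the gene under the filter and the near-identical copies; from related lists, genes with an unadjusted p under 0.05 and the smallest p of each list. Other names were added after values were seen. Alternatives were other scalings and filters, DESeq2 1.42.0, limma-voom (limma 3.58.1), a replicate block, left-out libraries, a length correction and protein-coding genes only; GENCODE M21 lengths were added after the data were seen.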

Additional observations from a re-analysis of the deposited data

How the results depend on the processing

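In each of the 17 alternatives 0 of the tested genes of the set were called, and their median log2 fold change ran from 0.0050 (without WT 2) to 0.03. Single signs were less stable: 17 of the 39 genes kept the sign of their fold change throughout and 22 had the other sign in at least 1 alternative. The smallest adjusted p of any of them was 0.461, for Dnah12 without WT 1 and KO 2. Over all genes 1 was called, against 50 with no low-count filter, 2 with DESeq2, 9 without WT 1 and KO 2, and 1 to 3 with 1 library left out (3 if WT 2 was left out, 2 for WT 3 and 2 for KO 3); the cause was not tested. By CPM in place of CPM per kilobase Dnaaf1 moved from place 2 to 1 and Dnah8 from 6 to 2, and with GENCODE M21 lengths, chosen after seeing the data, Dnah8 stood in place 11, all of which follow from the length divided by. Whether shared replicate numbers pair the samples is not stated. Deviations of same-numbered libraries from their group means correlated across genes at -0.173, -0.0289 and 0.114. Those of differently numbered libraries ran from -0.165 to 0.185, a similar range, so these values cannot decide it. A replicate block in the fit gave 1 gene called, 0 of the set, and the set's median was 0.02. Counts near 10 reads, as for Dnah11, limit what can be seen.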

Other observations

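Dyx1c1, also known as Dnaaf4, encodes a dynein arm assembly factor but carries a symbol outside the name rule. It was scarce, with 5, 3 and 4 reads in WT and 8, 11 and 9 in KO, was under the low-count filter and was not tested. It was chosen after its values were seen. Every KO library stood above every WT library, which was the case for 4.69% of the genes tested. That share leaves out genes under the filter, such as Dyx1c1, for which no share was computed.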
